A study of Drosophila melanogaster with 4 samples.

Results

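The 10 genes described here act in Jun N-terminal kinase (JNK) signalling and in programmed cell death: bsk, hep, puc, kay, Jra, Mmp1, hid, rpr, Diap1 and Dronc. They were found by symbol in tables that together list 7451 genes of the Drosophila melanogaster wing imaginal disc, the larval tissue from which the adult wing grows. Single-cell RNA sequencing was run on third-instar discs of 4 genotypes, with 1 library per genotype and 100 to 120 discs pooled in each. The genotypes were ap-Gal4>GFP/+; UAS-Cdk8i-cycCi/+ (the Cdk8-CycC library), ap-Gal4>GFP/+; UAS-Med12i/+ (the Med12 library), ap-Gal4>GFP/+; UAS-Cdk8i-cycCi-Med12i/+ (the combined library) and ap-Gal4>GFP/+ (Control). All 4 thus share the driver and GFP, and the 3 depletions target subunits of the CDK8 kinase module of Mediator, a complex that links transcription factors to RNA polymerase.

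The driver ap-Gal4 is active in the dorsal compartment, where it makes GFP and, in the depletion libraries, the interfering RNA. For each library the authors deposited a table that sets GFP-positive against GFP-negative cells, restricted to cells in which the wing pouch gene nub was found. A log2 fold below sets mean expression in GFP-positive over that in GFP-negative cells, and a detection share is the percentage of cells in which a gene was found. In Control this is a dorsal against ventral comparison. The log2 difference from Control, a depletion library's log2 fold minus Control's, sets the depletion library against that dorsal bias, and all 3 such differences rest on the same Control library. Cell numbers and depth are unknown and nothing is replicated, so values carry no error, no test was possible, and library and genotype cannot be told apart.

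JNK signalling is a kinase relay that responds to wounds, loss of cell polarity and other stress. The kinase Hep activates the JNK encoded by bsk, which activates the AP-1 transcription factors Jra (Jun) and Kay (Fos). AP-1 switches on targets such as Mmp1, a matrix metalloproteinase, and puc, a phosphatase that turns Bsk off again. In wing discs lasting JNK activity can raise the death genes rpr and hid. Their products block Diap1, a ubiquitin ligase that restrains the initiator caspase Dronc.

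The depleted genes were lower in GFP-positive cells where targeted. The log2 folds of Cdk8 were -0.064, 0.020 and -0.078 in the Cdk8-CycC, Med12 and combined libraries and 0.026 in Control, those of CycC were -0.24, 0.10 and -0.21 in the Cdk8-CycC, Med12 and combined libraries and -0.00049 in Control, and those of kto, which encodes Med12, were 0.024, -0.15 and -0.22 in the Cdk8-CycC, Med12 and combined libraries and -0.013 in Control. The dorsal gene ap was found in 62.6% to 68.1% of GFP-positive against 5.3% to 7.2% of GFP-negative cells in the authors' deposited tables. Between 98.5% and 99.4% of listed genes had the higher detection share in GFP-positive cells, so shares of a member are set here against genes of similar detection. A gene is listed only where the authors' p-value over cells was below 0.01, and an unlisted gene has no value. None of 7 hemocyte markers was listed. Of 3 genes taken as markers of the peripodial cells that overlie the disc, Ubx and Antp were listed in every library. Ubx had log2 folds of 3.86, 4.58 and 4.51 in the Cdk8-CycC, Med12 and combined libraries and 4.62 in Control. The authors' deposited tables gave it in 93.5%, 89.4% and 88.1% of GFP-positive cells of the depletion libraries and 96% in Control. In GFP-negative cells the shares were 24.8%, 35.1% and 18.6%, and 39.7% in Control. Found in most GFP-positive cells, Ubx did not single out a small group of them here. Antp had log2 folds of 0.033, 0.23 and 0.21 in the Cdk8-CycC, Med12 and combined libraries and 0.040 in Control. The remaining one, Doc2, lay at -0.079, -0.020 and 0.060 in the depletion libraries and was unlisted in Control. The 3 did not move together, and their part in the values below was not tested.

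The members were close to even between the cell sets, with hid and Diap1 farthest from 0. Each library listed 9 of the 10, and 7 were listed in all 4. Diap1 was missing from the Cdk8-CycC and Control tables, kay from the Med12 table and Jra from the combined table. Mean expression of bsk, hid, rpr and Dronc was higher in GFP-positive cells in every library, and that of kay and Diap1 lower wherever listed, while hep, puc, Jra and Mmp1 took both signs. The members' median log2 fold was -0.0099, 0.034 and 0.038 in the Cdk8-CycC, Med12 and combined libraries and 0.021 in Control. Over all listed genes the medians were 0.021, 0.017 and 0.019 in the depletion libraries and 0.0043 in Control. The share of all listed genes with a log2 fold above 0 was 77.6%, 73.9% and 76.1% in the depletion libraries and 55.8% in Control, against 4, 7 and 6 of 9 members, and 6 of 9 in Control. Being above 0 is thus common in the depletion libraries.

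A size rule stands in for a test: a fold of at least 1.3 in either direction, with detection in at least 10% of one cell set. It called 0 members in every library, where it called 0.578% of genes for Cdk8-CycC, 1.23% for Med12, 0.91% for combined depletion and 0.396% in Control. At a fold of 1.2 it called hid in the Cdk8-CycC library and in Control, and no other member. The background at 1.2 was 1.62%, 2.62% and 2.16% of genes in the depletion libraries, in the same order, and 1.09% in Control. Relative to Control, 0 members were called at either size. There the rule called 0.118%, 0.38% and 0.414% of genes at 1.3, and 0.651%, 1.01% and 0.848% at 1.2. With so few genes called, 10 genes would hold few or none in any case. The same holds for each of the gene lists below, whose counts of called genes are read against these shares.

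**Figure D1:**
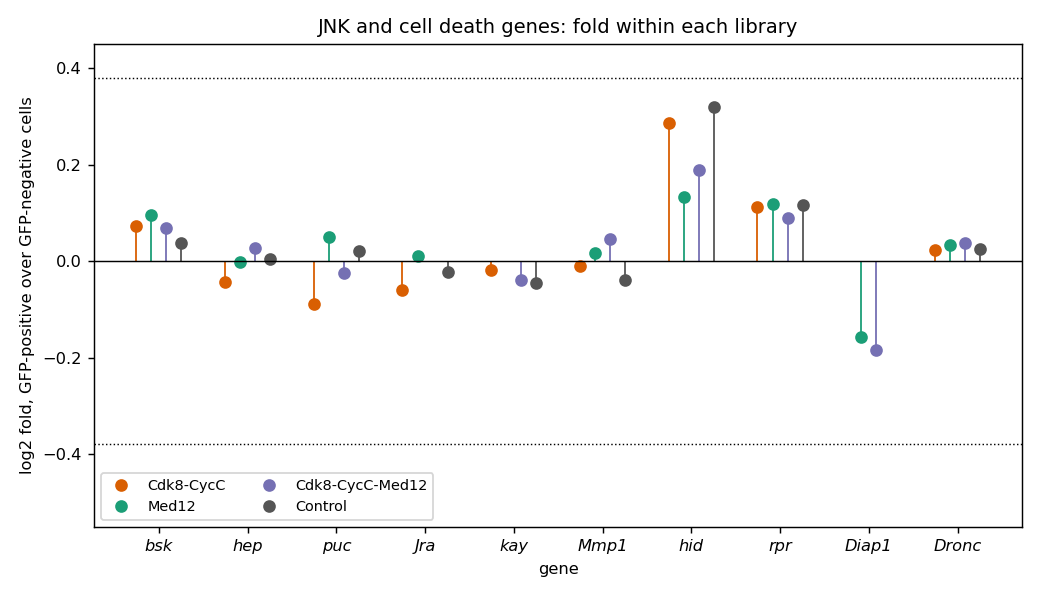
Log2 fold of mean expression in GFP-positive over GFP-negative cells (y axis) for the 10 genes (x axis), with 1 point per library that listed the gene and dotted lines at a fold of 1.3 in either direction. The gene hid is the highest in every library, from 0.13 in the Med12 library to 0.32 in Control, and Diap1 is the lowest where listed, at -0.16 and -0.18.

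Of the kinases, bsk leaned to GFP-positive cells in all libraries. The authors' deposited tables gave bsk (FBgn0000229) in 67.2% of GFP-positive against 49.5% of GFP-negative cells of the Cdk8-CycC library, 81.1% against 67.1% in the Med12 library, 78.0% against 63.4% in the combined library and 60.7% against 45.5% in Control. The log2 folds were 0.074, 0.095 and 0.069 in the Cdk8-CycC, Med12 and combined libraries and 0.038 in Control, so each depletion library lay above Control. The differences from Control were 0.036, 0.057 and 0.031. Over all genes compared, the median differences were 0.024, 0.019 and 0.020, and 38.9%, 19.3% and 39.3% of genes lay higher than bsk.

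The JNK kinase gene hep (FBgn0010303) was near even. In the authors' deposited tables its shares were 68.6% of GFP-positive against 55.1% of GFP-negative cells for Cdk8-CycC, 75.5% against 63.5% for Med12, 79.9% against 70.2% for combined depletion and 63.0% against 51.5% in Control. Log2 folds of hep were -0.044, -0.0023 and 0.028 in the Cdk8-CycC, Med12 and combined libraries and 0.0046 in Control. The Cdk8-CycC library was the lowest, 0.048 below Control, where 4.0% of 5308 genes lay lower still. The combined library lay 0.071 above the Cdk8-CycC library.

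The cascade from ligand to kinase is a list of 14 genes that holds bsk and hep. Its share of log2 folds above 0 was smaller than that of genes at large in the Cdk8-CycC and Med12 libraries. The same held in Control, without depletion, and each share rests on few genes. The tables listed 12, 10 and 12 of them for Cdk8-CycC, Med12 and combined depletion and 8 in Control, of which 5, 3 and 9, and 3 in Control, had log2 folds above 0. That compares with 77.6%, 73.9% and 76.1% of all genes in the depletion libraries and 55.8% in Control. The list's median log2 fold was -0.0098, -0.0052 and 0.027 in the depletion libraries and -0.012 in Control. The size rule called 0. The median difference from Control was 0.032 over 8 genes, 0.020 over 7 and 0.027 over 8, near the medians of all genes. The ligand gene egr was unlisted everywhere, and grnd, which encodes a receptor for it, was listed in the depletion libraries alone, at 0.011, 0.085 and 0.10. Chosen after their values were seen, Mkk4, a further JNK kinase gene, differed from Control by 0.10, 0.037 and 0.15, and the adaptor gene Traf6 by 0.086, 0.085 and 0.10. Both were lower in GFP-positive cells of Control, at -0.064 and -0.086.

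The AP-1 genes were mostly lower in GFP-positive cells on mean expression. The authors' deposited tables gave Jra (FBgn0001291) in 42.2% of GFP-positive against 33.0% of GFP-negative cells for Cdk8-CycC, 61.4% against 49.6% for Med12 depletion and 39.7% against 30.2% in Control. Its log2 folds were -0.060 and 0.011 in the Cdk8-CycC and Med12 libraries and -0.023 in Control. The GFP-positive share of Jra in the Cdk8-CycC library lay 6.6 percentage points below the median of genes whose GFP-negative share was within 5 points, and 8.0% of those genes lay lower. The Fos gene kay (FBgn0001297) was found in 44.3% of GFP-positive against 31.8% of GFP-negative cells for Cdk8-CycC, 61.3% against 46.6% for combined depletion and 39.7% against 30.4% in Control, per the authors' deposited tables. The log2 folds of kay were -0.019 and -0.039 in the Cdk8-CycC and combined libraries and -0.044 in Control. Jra differed from Control by -0.037 and 0.035, and kay by 0.026 and 0.0054.

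The feedback phosphatase gene puc (FBgn0243512) is often used as a reporter of JNK activity. Its mean expression was lower in GFP-positive cells of both libraries that deplete Cdk8 and CycC and higher in the others. It was detected in 42.9% of GFP-positive against 32.1% of GFP-negative cells for Cdk8-CycC, 54.3% against 41.7% for Med12, 58.9% against 45.1% for combined depletion and 41.7% against 29.2% in Control, per the authors' deposited tables. Its log2 folds of mean expression were -0.088, 0.050 and -0.024 in the Cdk8-CycC, Med12 and combined libraries and 0.021 in Control. In the Cdk8-CycC library puc lay 0.11 below Control, the 60th lowest of 5308 genes and outside their central 95%, which ran from -0.066 to 0.15. In the combined library it lay 0.045 below Control and in the Med12 library 0.029 above.

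Directly against the Med12 library, with no use of Control, puc was lower by 0.14 in the Cdk8-CycC library, the 118th lowest of 5227 genes. In the combined library it was lower by 0.074, the 179th lowest of 5191. Set against genes of similar detection, the GFP-positive share was lower by 4.9, 0.8 and 1.6 points in the Cdk8-CycC, Med12 and combined libraries and higher by 1.7 points in Control. Among the 4299 other genes listed in all tables, the 4 log2 folds most like those of puc, by Euclidean distance, belonged to CG13001, betaGlu and CG8281, at 0.046, 0.048 and 0.054. Of the other inhibitors, the phosphatase gene alph had log2 folds of 0.093 in the Cdk8-CycC library and 0.012 in Control, and raw was listed for Cdk8-CycC depletion alone, at -0.067. The list of 7 inhibitors and AP-1 genes, puc, Jra and kay included, had 0 called members and median differences from Control of 0.0054 over 5 genes, 0.029 over 3 and -0.0047 over 3.

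**Figure D2:**
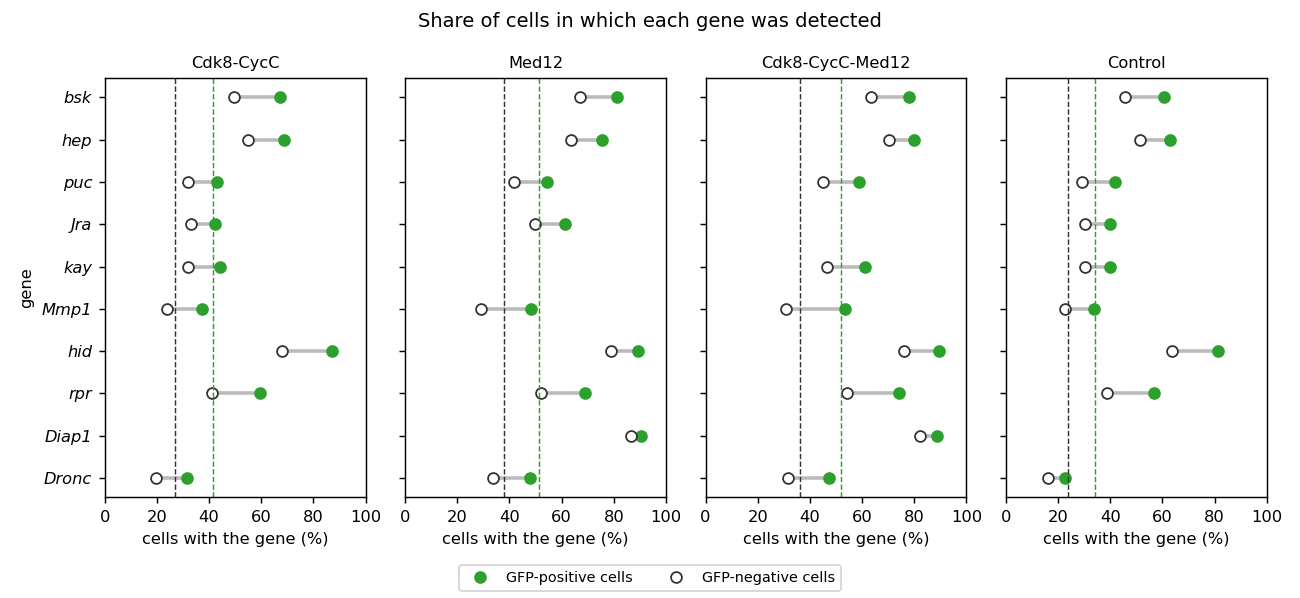
Percentage of cells (x axis) in which each gene (y axis) was found among GFP-positive (filled) and GFP-negative cells (open), with 1 panel per library and dashed lines at the median shares of all listed genes. The filled point lies to the right of the open one for every listed member, and the gap for Mmp1 is 13.3, 19.3 and 22.5 points in the Cdk8-CycC, Med12 and combined libraries and 11.0 points in Control.

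Mmp1, which degrades matrix proteins, had a larger GFP-positive share than genes of similar GFP-negative share in both libraries with Med12 depleted. The authors' deposited tables gave Mmp1 (FBgn0035049) in 37.2% of GFP-positive against 23.9% of GFP-negative cells for Cdk8-CycC, 48.4% against 29.1% for Med12, 53.5% against 31.0% for combined depletion and 33.6% against 22.6% in Control. The GFP-positive share lay 7.3 and 8.2 points above such genes in the Med12 and combined libraries, with 93.9% and 95.8% of them lower. It lay 0.0 points from them in the Cdk8-CycC library and 1.5 points above them in Control. Set against Control, the log2 odds of finding Mmp1 in GFP-positive cells of the Med12 and combined libraries did not stand out. Relative to the median of genes listed in all tables they lay at -0.30 and 0.083, with 26.6% and 64.2% of genes lower.

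On mean expression Mmp1 had log2 folds of -0.0099, 0.016 and 0.047 in the Cdk8-CycC, Med12 and combined libraries and -0.039 in Control. The Med12 value is the level of all genes, with 50.9% of them higher, and is -0.00082 once their median is taken off. The differences from Control were 0.029, 0.056 and 0.086, inside the central 95% of genes each time, and 10.3% of genes lay higher in the combined library. Trachea also express Mmp1. Of the tracheal markers, btl was unlisted and trh was listed for Med12 and combined depletion alone, at log2 folds of -0.12 and -0.17, lower in GFP-positive cells. The authors' deposited tables gave trh in 26.2% of GFP-positive against 28.9% of GFP-negative cells for Med12 and 32.5% against 35.1% for combined depletion. Found in that many cells, trh did not single out a small group of them here. The part of trachea in the Mmp1 values was not tested.

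**Figure D3:**
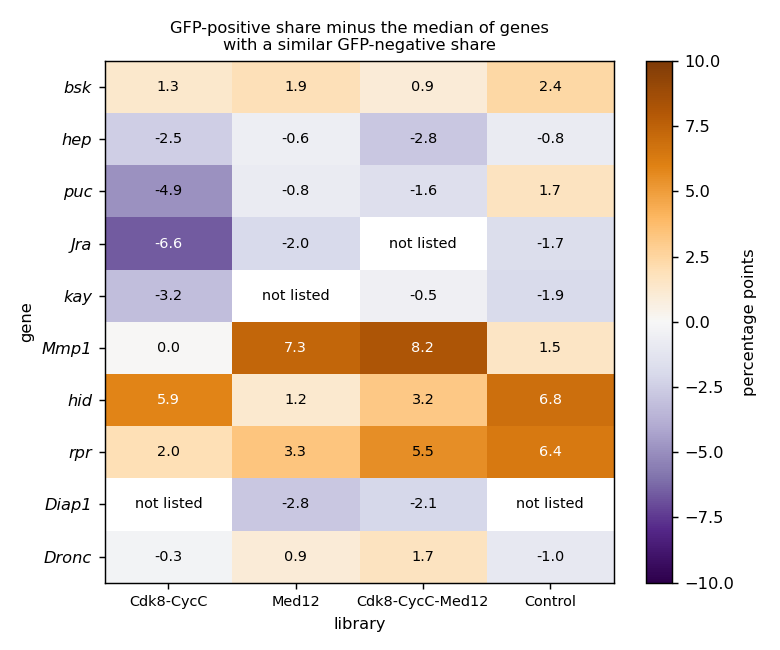
GFP-positive detection share of each gene (rows) minus the median GFP-positive share of genes whose GFP-negative share lies within 5 points, in percentage points, by library (columns). Mmp1 stands at 7.3 and 8.2 in the Med12 and combined libraries, and Jra at -6.6 and puc at -4.9 in the Cdk8-CycC library. The genes bsk, hid and rpr are above 0 in all 4 libraries.

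A list of 13 JNK targets, which holds puc, Mmp1, rpr and hid, had 0 members called by the size rule in any library or relative to Control. Log2 folds above 0 were found for 8 of 12 listed targets with Cdk8-CycC, 9 of 10 with Med12 and 9 of 11 with combined depletion, and 10 of 12 in Control, beside the shares of all genes given above. Relative to Control, 6 of 11, 8 of 9 and 6 of 10 lay above 0, with medians of 0.0026, 0.046 and 0.0077. Among all genes 74.6%, 69.2% and 71.0% lay above 0.

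Targets that encode secreted signals were found in few cells. Their share was larger in GFP-positive cells, as it was for nearly all genes, but by a larger ratio than the median gene. For upd1 the log2 ratio of shares was 3.44, 3.55 and 2.85 in the Cdk8-CycC, Med12 and combined libraries and 3.75 in Control. Over all genes its median was 0.60, 0.42 and 0.48 in the depletion libraries and 0.49 in Control. These ratios were not set against those of genes as rarely found. Distances from genes of similar detection are given too. Ilp8, a relaxin-like hormone gene by which damaged discs delay metamorphosis, was found in 8.7% of GFP-positive against 0.9% of GFP-negative cells for Cdk8-CycC depletion and 1.8% against 0.6% in Control, per the authors' deposited tables, and was unlisted in the others. Its log2 folds were 0.075 in the Cdk8-CycC library and 0.0057 in Control, on a scale that understates low genes. Its GFP-positive share lay 4.2 points above genes of similar detection in the Cdk8-CycC library and 3.5 points below them in Control. For targets this rare, such genes can have GFP-negative shares up to 5 points higher, several times the target's own. The distances in this paragraph therefore depend on that window. The cytokine gene upd1 had shares of 7.6% against 0.7%, 11.7% against 1.0% and 10.1% against 1.4% in the Cdk8-CycC, Med12 and combined libraries and 5.4% against 0.4% in Control in the authors' deposited tables. Its GFP-positive share lay 3.4, 6.3 and 5.0 points above genes of similar detection in the depletion libraries and 0.3 points above them in Control, where 52.7% of those genes lay lower. Of the genes listed in all tables, 95.1%, 98.4% and 98.6% likewise had a larger GFP-positive share in these depletion libraries than in Control. Whether upd1 exceeded that general shift was not tested. For upd3, another cytokine gene of the same family, the authors' deposited tables gave 2.1% against 0.4%, 4.1% against 0.4% and 5.4% against 0.3%, and 2.0% against 0.2% in Control. Its distances were -1.9, -0.8 and 0.7 points in the depletion libraries and -2.9 points in Control.

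The other targets, named after their values were seen, showed no common pattern. Log2 folds of the stress gene Gadd45 were 0.053, 0.12 and 0.086 in the Cdk8-CycC, Med12 and combined libraries and 0.047 in Control. For scaf they were 0.060 and 0.11 in the Cdk8-CycC and Med12 libraries and 0.011 in Control. The filamin gene cher lay at -0.057, 0.068 and 0.097 in the depletion libraries and was unlisted in Control. The gene mol was lower in GFP-positive cells throughout, at -0.083, -0.031 and -0.075 in the Cdk8-CycC, Med12 and combined libraries and -0.083 in Control.

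**Figure D4:**
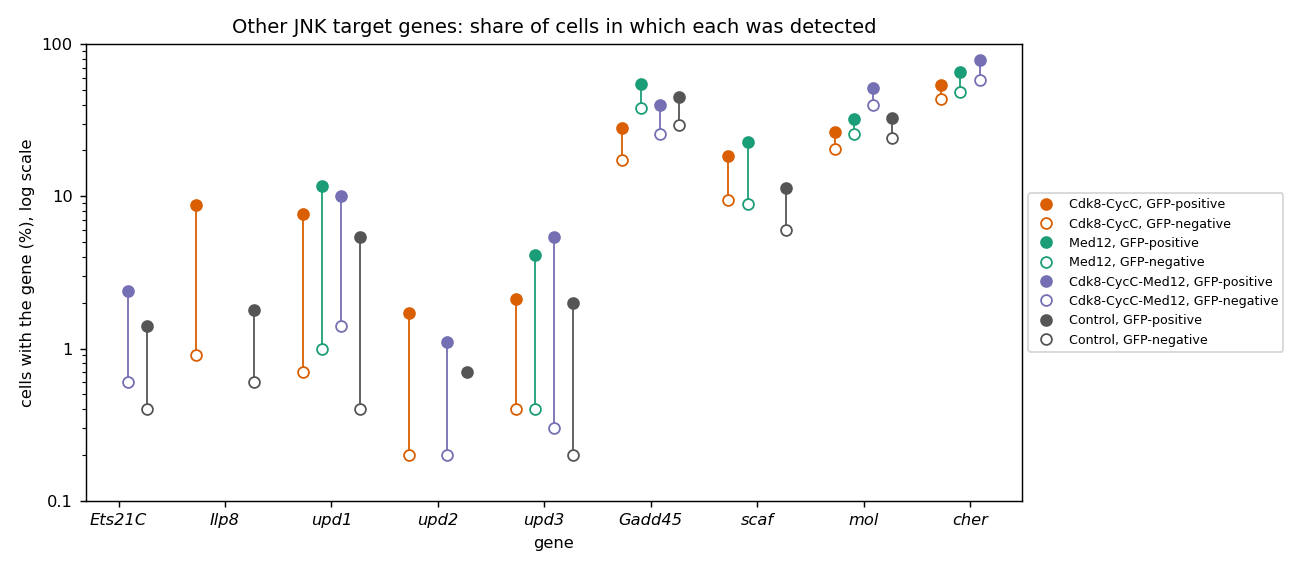
Percentage of GFP-positive (filled) and GFP-negative cells (open) in which the 9 JNK targets outside the 10 genes were found (y axis, log scale), by gene (x axis) and library (colours). Ilp8 stands at 8.7% of GFP-positive cells in the Cdk8-CycC library and 1.8% in Control, and the GFP-negative share of upd2 in Control, listed at 0, is off the axis.

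Of the Diap1 antagonists, hid (FBgn0003997) was higher in GFP-positive cells of every library, and least so where Med12 was depleted. It was found in 87.1% of GFP-positive against 67.9% of GFP-negative cells for Cdk8-CycC, 89.3% against 79.1% for Med12, 89.6% against 76.1% for combined depletion and 81.4% against 63.5% in Control, per the authors' deposited tables. The log2 folds were 0.29, 0.13 and 0.19 in the Cdk8-CycC, Med12 and combined libraries and 0.32 in Control. In Control hid had the 25th highest log2 fold of 5524 genes, so its dorsal bias was there without any depletion.

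In the Med12 library hid lay 0.19 below Control, the 24th lowest of 4574 genes. In the combined library it lay 0.13 below, the 65th lowest of 4973, and in the Cdk8-CycC library 0.034 below. The central 95% of genes began at -0.076 and -0.078 for Med12 and combined depletion, so hid lay outside both. Without Control, hid was 0.15 higher in the Cdk8-CycC than in the Med12 library, the 95th highest of 5227 genes, and 0.095 lower in the combined than in the Cdk8-CycC library. The GFP-positive share lay above genes of similar detection by 5.9, 1.2 and 3.2 points in the Cdk8-CycC, Med12 and combined libraries and by 6.8 points in Control, and those genes had median shares of 81.2%, 88.1% and 86.4%, and 74.6% in Control, which leave unequal room above them. Other measures of detection gave other orders. The log2 odds ratio of detection, minus its median over all genes, was 0.67, 0.30 and 0.49 in the depletion libraries and 0.58 in Control. The log2 ratio of shares, centred likewise, was -0.24, -0.24 and -0.24, and -0.13 in Control.

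**Figure D5:**
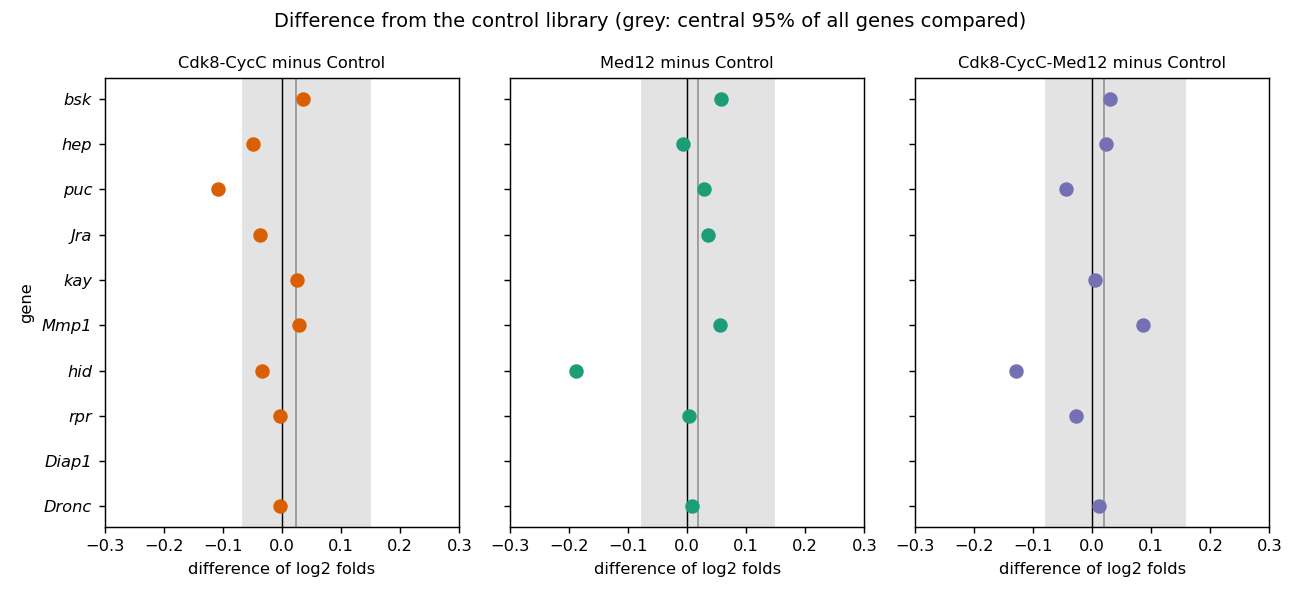
Log2 fold in each depletion library minus that in Control (x axis) for each gene (y axis), with the central 95% of all genes compared in grey and their median as a grey line. The gene puc at -0.11 in the Cdk8-CycC panel and hid at -0.19 and -0.13 in the Med12 and combined panels lie outside the grey band, and genes unlisted in either library have no point.

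The other antagonist, rpr (FBgn0011706), hardly varied in log2 fold between libraries, while its detection did. Its GFP-positive share lay 2, 3.3 and 5.5 points above genes of similar detection in the Cdk8-CycC, Med12 and combined libraries and 6.4 in Control. Its shares were 59.7% of GFP-positive against 41% of GFP-negative cells for Cdk8-CycC, 69.1% against 52.2% for Med12, 74.2% against 54.1% for combined depletion and 56.7% against 38.9% in Control in the authors' deposited tables. The log2 folds of rpr were 0.11, 0.12 and 0.090 in the Cdk8-CycC, Med12 and combined libraries and 0.12 in Control, a span of 0.030 against 0.19 for hid. As rpr was found in fewer cells than hid and the scale understates low genes, these spans are not on equal terms. It differed from Control by -0.0032, 0.0029 and -0.027. In RefSeq's Release 6 annotation rpr lies next to grim and to skl, with hid 6 protein-coding genes away. Both neighbours encode Diap1 antagonists too, but grim was unlisted everywhere and skl was listed for Cdk8-CycC depletion alone, in 1.1% of GFP-positive against 0.2% of GFP-negative cells in the authors' deposited table. The list of 5 antagonists had 0 called members, and all those listed, 4, 3 and 3 in the depletion libraries and 3 in Control, had log2 folds above 0, a count too small to set apart from 77.6%, 73.9% and 76.1% of all genes in the depletion libraries and 55.8% in Control.

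Diap1, the target of these antagonists, was listed in both libraries with Med12 depleted and in no other. The authors' deposited tables gave Diap1 (FBgn0260635) in 90.4% of GFP-positive against 86.7% of GFP-negative cells for Med12 and 88.6% against 82.2% for combined depletion. Mean expression was lower in GFP-positive cells, at log2 folds of -0.16 and -0.18. These were the 97th lowest of 5568 and the 59th lowest of 6377 values, outside the central 95%, which began at -0.11 and -0.091. Its GFP-positive share lay 2.8 and 2.1 points below genes of similar detection. A difference from Control could not be computed. Among the 5 inhibitors of apoptosis and their regulators 0 were called, and Diap2 had log2 folds of 0.037, -0.00059 and 0.024 in the Cdk8-CycC, Med12 and combined libraries and -0.030 in Control. The median difference from Control of that list was 0.067, 0.029 and 0.049 over 3 genes each, Diap2, Det and morgue. Diap1 and Bruce, unlisted in Control, are not part of it.

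The initiator caspase gene Dronc (FBgn0026404) had similar log2 folds in all libraries, while its detection shares varied between them. It was found in 31.7% of GFP-positive against 19.8% of GFP-negative cells for Cdk8-CycC, 47.8% against 33.8% for Med12, 47.3% against 31.5% for combined depletion and 22.6% against 16.0% in Control, per the authors' deposited tables. The log2 folds of mean expression were 0.023, 0.034 and 0.038 in the Cdk8-CycC, Med12 and combined libraries and 0.026 in Control. Their span of 0.015 was the narrowest of the 7 members listed in all tables. Dronc also had the smallest GFP-positive share of these 7 in every library. The log2 fold scale understates low genes, so the narrow span alone does not show that Dronc was steadier. Its differences from Control were -0.0027, 0.0081 and 0.012. The genes with the most similar log2 folds were PKD, Ubc7 and HBS1, at 0.0087, 0.0096 and 0.0097. For hid, added after its values were seen, they were Ssb-c31a, CG8740 and tun, at 0.089, 0.127 and 0.127.

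Of 9 genes of caspases and the apoptosome, 5, 6 and 5 were listed in the Cdk8-CycC, Med12 and combined libraries and 5 in Control. The size rule called 0 of them, as a list this short would give in any case. The effector caspase gene Drice had log2 folds of 0.10, 0.058 and 0.076 in the Cdk8-CycC, Med12 and combined libraries and 0.038 in Control. For Dark, the adaptor on which Dronc is activated, they were -0.037, -0.011 and 0.043 in the Cdk8-CycC, Med12 and combined libraries and -0.032 in Control. The list's median difference from Control was -0.0035 over 4 genes, 0.020 over 5 and 0.025 over 4.

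Shares were also compared between libraries, within one cell set at a time. Over the 4300 genes listed in all tables, 78.6%, 98.2% and 98.0% had a higher share in GFP-negative cells of the Cdk8-CycC, Med12 and combined libraries than in those of Control, so a member is read against that shift. In GFP-positive cells the log2 odds of finding Dronc, relative to Control, lay 0.18, 0.46 and 0.52 above the median of these genes, with 73.0%, 86.1% and 96.0% of genes lower. In GFP-negative cells they lay 0.13, 0.31 and 0.34 above it, with 66.7%, 78.2% and 93.4% lower. In the combined library Dronc was thus high in both cell sets, while in the Cdk8-CycC library it lay within the bulk of genes.

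For puc the same measure in GFP-positive cells was -0.41, -0.45 and -0.099, and in GFP-negative cells -0.048, -0.32 and 0.066. In the Cdk8-CycC library puc was therefore low in GFP-positive cells and near the median in GFP-negative ones, with 7.5% and 43.9% of genes lower. In the Med12 library puc lay below the median in both cell sets, with 17.6% and 25.2% of genes lower. For combined depletion 32.4% and 61.7% lay lower. In GFP-positive cells this order of libraries was not that of the log2 folds of puc. For hid the values were 0.14, -0.26 and -0.12 in GFP-positive and 0.037, 0.0069 and -0.056 in GFP-negative cells. For rpr they were -0.31, -0.41 and 0.033 in GFP-positive and -0.12, -0.34 and -0.040 in GFP-negative cells. For Mmp1 they were -0.26, -0.30 and 0.083 in GFP-positive and -0.14, -0.62 and -0.31 in GFP-negative cells. In the Med12 and combined libraries the GFP-negative cells thus held Mmp1 less often than the general shift would give. In GFP-positive cells of these libraries 26.6% and 64.2% of genes lay lower than Mmp1, so it was not high there.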

How the data were processed

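Trypsin-dissociated discs were sequenced on the 10x Genomics platform, per the labels' protocols. The submitters' processing notes name Cell Ranger 3.0.2 and Seurat. No source used here gives the genome build, cell filters, doublet treatment or Seurat version, so no coordinates or sequences are printed. The authors' deposited fold is an unsigned value taken as a natural log, as its column name in early Seurat releases implies, with a pseudocount of 1. Its sign was set by the deposited label of the higher cell set. The deposited detection value is a fraction of cells, printed as a percentage. The authors' p-value treats cells as replicates and was used only as the listing limit of 0.01.

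Folds were converted to log2 with Python 3.11.15 and pandas 2.3.3, and the conversion was tested on simulated data. Of 64 pathway genes, 56 were listed in at least 1 table, 2 of all list genes under another spelling. The text names all members, list genes that pass the size rule or illustrate a list's count, up to 4 genes per marker list, and the 3 genes most like puc, Diap1 and Dronc where listed in all 4 tables, which Diap1 was not. Members, lists and rules were chosen with earlier results of these data known. Direct comparisons of depletions and odds of detection between libraries were added after the values were seen. Other thresholds, centring, log base and detection ratios were tried as alternatives.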

Additional observations from a re-analysis of the deposited data

Results flagged for a closer look

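Some members had a log2 fold of one sign in a depletion library and of the other in Control. With 1 library per genotype these differences were not tested. In the Cdk8-CycC library puc differed from Control by -0.11 (-0.088 against 0.021) and hep by -0.048 (-0.044 against 0.0046). In the Med12 library Mmp1 differed by 0.056 (0.016 against -0.039), Jra by 0.035 (0.011 against -0.023) and hep by -0.0069 (-0.0023 against 0.0046). In the combined library Mmp1 differed by 0.086 (0.047 against -0.039) and puc by -0.045 (-0.024 against 0.021). Of these 7 differences, that of puc in the Cdk8-CycC library lay outside the central 95% of all genes compared.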

How the results depend on the processing

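The count of members called at a fold of 1.3 was 0 in 4 libraries and 3 differences from Control. It was also 0 in all 7 at a fold of 1.5, with no minimum share, with a minimum of 25%, with the deposited fold read as log2, after centring each table on its median, and by the centred ratio of shares. At a fold of 1.2 it was 1 in the Cdk8-CycC library and 1 in Control, hid both times. By the uncentred ratio of shares 6, 4 and 5 members were called in the Cdk8-CycC, Med12 and combined libraries and 7 in Control, where 74.0%, 54.9%, 61.7% and 71.2% of all genes were called, and 0 relative to Control. That ratio gave another sign for 13 of 36 member folds and 9 of 25 differences, the centred ratio for 17 and 10, and centring of folds for 2 and 4, one of them Mmp1 in the Med12 library, at -0.00082. The centred odds ratio of detection moved 22 of 36 folds by over 0.1 and gave 7 another sign. Setting Diap1 to 0 in Control, where it was unlisted, only returned its log2 folds of -0.16 for Med12 and -0.18 for combined depletion. It therefore says nothing on a difference from Control. No paired analysis was possible because each genotype has 1 library. Depth is unknown, so no interval was computed.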

Other observations

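The list of p53 and DNA damage genes had median log2 folds of 0.012, 0.014 and 0.014 in the Cdk8-CycC, Med12 and combined libraries and -0.0093 in Control. The medians of all genes were 0.021, 0.017 and 0.019 in the depletion libraries and 0.0043 in Control. Its median differences from Control were 0.020, 0.014 and 0.013 over 5 genes each, against 0.024, 0.019 and 0.020 for all genes. Of 8 such genes, 6, 5 and 7 were listed in the Cdk8-CycC, Med12 and combined libraries and 5 in Control, and 0 passed the size rule. Log2 folds of p53 were 0.020, 0.034 and 0.027 in the Cdk8-CycC, Med12 and combined libraries and -0.013 in Control, and those of the checkpoint kinase gene lok were 0.069, 0.044 and 0.078 in the Cdk8-CycC, Med12 and combined libraries and 0.013 in Control. Of the Bcl-2 family, Buffy was unlisted and Debcl had log2 folds of 0.029, 0.018 and 0.030 in the Cdk8-CycC, Med12 and combined libraries and -0.046 in Control.

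Among 4 genes for the uptake of dead cells 0 were called, and crq, a scavenger receptor gene, differed most from Control in the combined library. Its difference was 0.084, 0.034 and 0.18 in the Cdk8-CycC, Med12 and combined libraries, the last above the central 95% of genes, which ended at 0.16. The authors' deposited tables gave crq in 37.4% of GFP-positive against 22.6% of GFP-negative cells for Cdk8-CycC, 44.3% against 34.1% for Med12, 56.2% against 33.7% for combined depletion and 31.6% against 24.5% in Control. Log2 folds of crq were 0.039, -0.011 and 0.14 in the Cdk8-CycC, Med12 and combined libraries and -0.045 in Control. For drpr, an engulfment receptor gene, the differences were 0.028, 0.062 and 0.074. Hemocytes express crq as well, and 0 of 7 hemocyte markers were listed in any library. Their part in the crq values was not tested.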
